A study of Mus musculus with 170 samples.

Results

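Laminins are secreted proteins of the basement membrane, each assembled from an alpha, a beta and a gamma chain, and the 8 chain genes Lama1, Lama2, Lama3, Lama4, Lama5, Lamb1, Lamb2 and Lamc1 were followed here in single cells of the embryonic mouse heart. They are 8 of the 40549 gene rows of the table and were taken by name, not by their values. Lamb3 and Lamc3, which are outside these 8, are given beside them. The values come from 143 single cells of the ventricle at embryonic day 9.5, made by Smart-seq2, which copies and amplifies whole polyadenylated transcripts of a single cell. All embryos were of strain C57BL/6. Control cells (74, labelled wild type) came, by the study's methods, from Dgcr8 loxP/loxP; ROSA26 mTmG/+ embryos without Cre. Conditional knockout cells (cKO, 69) are labelled Mesp1Cre/+; Dgcr8-/- and carried the same reporter, so the control cells also carry loxP sites in both Dgcr8 alleles and the red and green membrane reporter. Cre was expressed from the Mesp1 locus, which is active in the mesoderm that forms the heart, and acts in many heart lineages and not in cardiomyocytes alone. Dgcr8 is the RNA-binding partner of Drosha, and without it canonical microRNAs are not made.

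A laminin is named by its chains, so laminin-411 is built from Lama4, Lamb1 and Lamc1 products and laminin-511 from those of Lama5, Lamb1 and Lamc1. The alpha chain carries the globular domains that bind integrins and dystroglycan on the cell, while the beta and gamma chains are shared by most laminins. The short arms of the chains link laminins into a sheet, which nidogen, perlecan and agrin join to the type IV collagen network, and the alpha 4 chain lacks the short-arm domain used for that polymerization. In adult tissues laminins with alpha 4 are known from vessels and from around muscle fibres, those with alpha 5 from many epithelia and vessels, and those with alpha 2 from mature heart and skeletal muscle. Transcripts found together in a cell are no measure of assembled protein.

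Cells were grouped by markers into a cardiomyocyte-like class (CM-like, 27 control and 66 cKO cells), an endothelial-like class (22 control cells) and an epicardial-like class (13 control cells). The remaining cells, 5 erythroid-like and 10 of no named class, entered no comparison. The classes were formed from and named by these markers, so a match to them is no check of the classes. All 15 cardiomyocyte markers, all 13 endothelial markers and all 7 epicardial markers were raised in the class of that name. The epicardial-like class also had 7 of 14 mesenchymal markers raised. No cKO cell fell into the endothelial-like or epicardial-like class, which allows a share of up to 4.35% of the cKO cells picked in each. Those classes are therefore described in control cells only. The authors picked visibly separate cells by hand and state that cKO cardiomyocytes came apart more readily than control ones. They also detected endocardial and endothelial marker transcripts in cKO hearts. The shares thus describe the picked cells and not the tissue. The part of this picking in the values below was not tested. Median numbers of detected genes in the compared classes were 8686 to 9395, and sequencing depth per cell is unknown. Within batches the genotypes differed in opposite directions. The CM-like medians were 8458 (control) and 9845 (cKO) in batch 1, and 9704 and 7786 in batch 2. The median mitochondrial share was 6.30% in control and 2.95% in cKO CM-like cells. The part of these differences in the values below was not tested. The labels name no embryo, so each genotype is 1 sample, cells are not replicates, and no difference below has a test. SDs describe the scatter over cells. Reads were amplified without molecular identifiers, and intervals cover counting error only. The 27 control CM-like cells divided into 19 in batch 1 and 8 in batch 2, against 33 and 33 for cKO, so values are given within each sequencing batch as well.

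Dgcr8 itself averaged 2.41 ± 2.89 (control) and 1.69 ± 2.47 (cKO) in CM-like cells on the log2(TPM + 1) scale, a smaller difference than the scatter of either genotype. Its transcript reached a TPM of 1 in 14 of 27 control and 21 of 66 cKO CM-like cells. Reads outside the deleted part of Dgcr8 can still be counted, so this row alone does not check the deletion. Xist, which coats the inactive X, reached a TPM of 1 in 63 of 66 cKO and 0 of 27 control CM-like cells. Ddx3y, a gene of the Y chromosome, did so in 0 of 66 and 18 of 27. Genotype and the sex of the embryos therefore cannot be told apart in these cells.

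MicroRNA matches are shown because canonical microRNAs depend on Dgcr8, and promoters are shown for Lama5 and Lamb2, which had the largest differences between the genotypes among the chains that passed the filter. The 3′ UTRs of the alpha and beta members were short, from 110 bases in Lamb2 to 210 in Lama2, which placed them at the 6.03 to 14.8 percentile of 21020 mouse 3′ UTRs. That of Lamc1 had 2551 bases, at the 82.1 percentile. Lama3 was not analysed in this search. The 3′ UTRs were searched for the 7-base match to the seed of 3 microRNAs, miR-29b-3p, whose family is known to act on matrix genes, miR-541-5p, which the study examined, and miR-21a-5p, which is abundant in many tissues. The only match among the members searched was a single miR-29b-3p match in Lamc1, and 13.1% of all 3′ UTRs hold such a match. Lamc3 held 2 matches to miR-541-5p. A match is a description of letters and no evidence of binding. The mature microRNAs (RefSeq), with the seed in capitals, and the 25 bases around the Lamc1 match (positions 1389 to 1413 of the 3′ UTR of Lamc1-201, GRCm38, minus strand of chromosome 1), with the match in capitals, are:
miR-29b-3p: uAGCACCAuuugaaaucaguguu
miR-541-5p: aAGGGAUUcugauguuggucacacu
Lamc1 3′ UTR: ctgacacacTGGTGCTattaattat

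The promoters of the members with the largest cKO differences are shown as 300 bases each, from 250 before to 50 after the start that RefSeq gives (GRCm38.p6), read on the strand of the gene, with GC boxes (GGGCGG or CCGCCC) in capitals. Lama5 lies on the minus strand at chr2:180225810-180226109 and Lamb2 on the plus strand at chr9:108479612-108479911. The Lama5 promoter had 72.7% G and C and 4 GC boxes. The Lamb2 window had 44% G and C and no GC box. The GENCODE start of Lamb2, at 108479736, lies inside that window and before the RefSeq start, so these letters describe this window and may not be those of the start used in the heart. The median over 32851 promoters was 52.7%, and 35.7% of them held a GC box. On neither strand did they hold the letters TATAAA of the TATA box, found in 13.6% of promoters. The TEAD site, searched as CATTCC and found in 14.7%, was also without a match, and so was the GATA site, searched as GATAAG and found in 7.44%. The CCAAT box is named by its letters, and 37.4% of promoters but neither of these held it. The promoter of Lamb1, between them in composition, had 63.7% G and C, 2 GC boxes and 1 CCAAT box.
Lama5: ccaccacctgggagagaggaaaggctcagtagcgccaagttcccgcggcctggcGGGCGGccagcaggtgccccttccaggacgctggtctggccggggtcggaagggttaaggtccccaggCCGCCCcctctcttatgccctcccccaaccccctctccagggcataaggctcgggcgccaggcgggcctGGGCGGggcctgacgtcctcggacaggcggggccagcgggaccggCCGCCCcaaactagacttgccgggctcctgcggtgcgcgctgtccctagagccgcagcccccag
Lamb2: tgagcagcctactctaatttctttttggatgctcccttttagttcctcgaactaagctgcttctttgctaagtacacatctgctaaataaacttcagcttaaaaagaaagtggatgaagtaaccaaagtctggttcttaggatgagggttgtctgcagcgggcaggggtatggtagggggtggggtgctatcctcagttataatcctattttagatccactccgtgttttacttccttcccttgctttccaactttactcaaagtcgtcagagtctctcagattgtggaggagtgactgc

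Of the 5 alpha chains, Lama4 and Lama5 were found in the most cells of these hearts. Over all 143 cells Lama4 was at a TPM of at least 1 in 97 cells, Lama5 in 63, Lama1 in 11, Lama2 in 8 and Lama3 in 0, with TPM above 0 in a single cell for Lama3. TPM is scaled per transcript length, and the chains are set side by side on that scale. Their longest forms differ, with 6046 bases for Lama4 and 11388 for Lama5. The part of length in the detection and order of the chains was not tested. In GRCm38 Lama4 lies at chr10:38965515-39110188 on the plus strand, Lama5 at chr2:180176373-180225859 on the minus strand, Lamb1 at chr12:31265234-31329644 and Lamb2 at chr9:108479736-108490530 on the plus strand, and Lamc1 at chr1:153218922-153332786 on the minus strand. The partner chains were common, Lamb1 in 123 and Lamc1 in 115 of the 143 cells, while Lamb2 was at that level in 45.

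In control CM-like cells Lama4 had a log2(TPM + 1) from 0 to 7.36 with a median of 4.30 and a mean of 4.06 ± 2.21 (SD over 27 cells). Lama4 reached a TPM of 1 in 23 of 27 of these cells (85.2%, exact 95% interval 66.3 to 95.8%). Lama5 in the same cells ran from 0 to 6.16 with a median of 0.05 and a mean of 1.45 ± 2.23, and 8 of 27 cells reached a TPM of 1 (29.6%, 13.8 to 50.2%). Most control cardiomyocyte-like cells therefore held Lama4 transcripts, and a minority held Lama5 as well. Lama2, the alpha chain of mature muscle, was at a TPM of 1 in 4 of 27 control CM-like cells, all in batch 1, with a highest value of 6.29 log2 units. Lama1, the alpha chain of the early embryo, was at 0 in all 27, which allows a share of up to 11.1% of cells at that level.

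**Figure D1:**
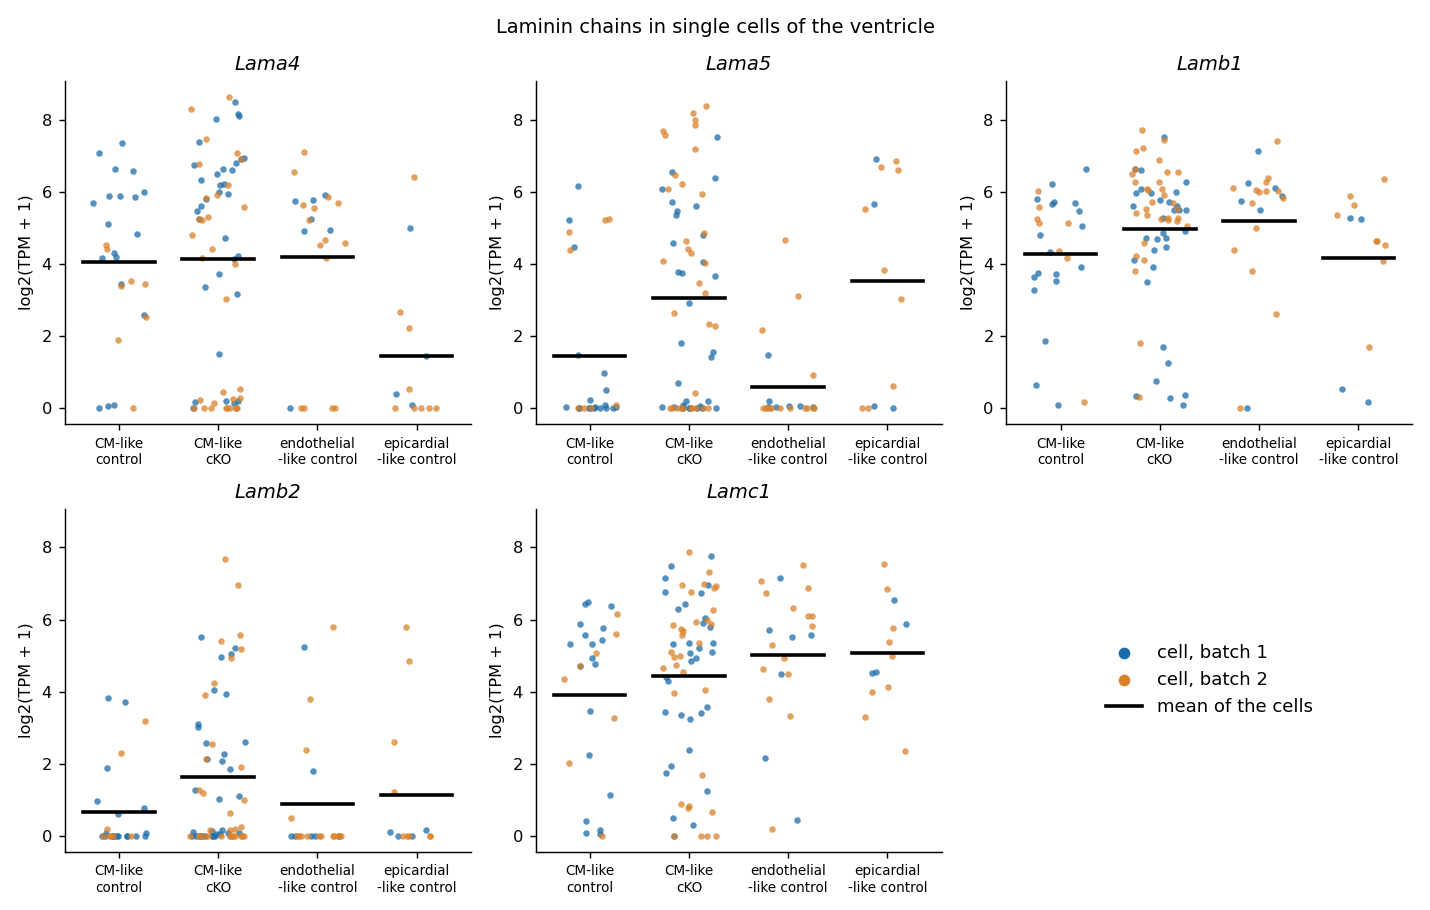
Each point is a cell, with log2(TPM + 1) of the 5 laminin chains that passed the filter on the vertical axis, the cell class and genotype on the horizontal axis, the sequencing batch as colour and the mean as a black bar. Points of Lama5 sit at or near 0 in most control CM-like and endothelial-like cells, while Lamb1 and Lamc1 are spread between 3 and 8 in most cells of every class.

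Lamb1 was the main beta chain of control CM-like cells, and Lamc1 was at a like level. Their mean log2(TPM + 1) was 4.28 ± 1.79 for Lamb1 and 3.92 ± 2.27 for Lamc1, medians 4.80 and 4.77, with ranges of 0.09 to 6.63 and 0 to 6.49. The means of Lama4, Lamb1 and Lamc1 lay within each other's SD. Lamb2, the beta chain known from synapses, vessels and kidney, had a mean of 0.66 ± 1.21 with a median of 0 and a highest value of 3.83. Lamb3 had a mean of 2.01 ± 2.42. The span of this gene overlaps those of Hsd11b1 and G0s2 on the opposite strand, and whether their exons share reads was not tested.

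The first comparison asked whether the chains of cardiomyocyte-like cells differ between the genotypes. Lama5 was higher in cKO than in control CM-like cells. In the 66 cKO cells it ran from 0 to 8.38 log2 units with a median of 3.06 and a mean of 3.07 ± 2.87, and 40 cells reached a TPM of 1 (60.6%, 47.8 to 72.4%). The groups overlapped, but 19 of the 27 control cells and 26 of the 66 cKO cells were below that TPM. The difference of the means, cKO minus control, was 1.62 log2 units over all cells, 1.48 in batch 1 and 1.16 in batch 2, smaller than the SD within either genotype. Lama5 was lower in batch 1 (1.01 control, 2.50 cKO) than in batch 2 (2.48 and 3.64). Most control cells were in batch 1, so the pooled values overstate the contrast. In batch 1, 4 of 19 control cells reached a TPM of 1, all with Lama4, against 14 of 33 cKO cells with Lama4 and 4 without. In batch 2 it was 4 of 8, against 13 and 9 of 33. A difference was called where it reached 1 log2 unit over all cells and had the same sign in both batches. Of the 15061 genes tested, 6.73% were called higher and 5.85% lower in cKO. Lama5 was the only chain called, 1 of 5 members that passed the filter on low values.

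Lama5 moved with other values that were measured in the same cells. Of 13 endothelial markers, 3 or more were at a TPM of 1 in 36 of 66 cKO and 11 of 27 control CM-like cells, and the summed endothelial TPM ran from 2.76 to 439 in cKO and from 2.60 to 232 in control cells. Across the 13 markers the median difference was 0.03 and 0 were called in either direction. The endothelial marker Cdh5 was at that level in 0 CM-like cells of either genotype, and Flt1 in 0 control cells. Among CM-like cells with fewer than 3 such markers (16 control, 30 cKO), the Lama5 means were 0.82 ± 1.93 and 1.78 ± 2.19, a difference of 0.96 over all cells, 0.24 in batch 1 and 2.36 in batch 2, where 3 control cells remained. This is below the limit for a call. Among those with 3 or more (11 control, 36 cKO) the difference was 1.78, with 2.63 in batch 1 and 0.62 in batch 2, so which of the sets of cells had the larger difference depended on the batch. Endothelial-like cells themselves had a mean Lama5 of 0.58 ± 1.23, less than CM-like cells of either genotype. Epicardial markers were summed to a median TPM of 24.4 in control and 33.7 in cKO CM-like cells, with 3 or more of 7 such markers in 3 cells of each genotype. Of 7 erythroid markers, 3 or more were at a TPM of 1 in 21 of 66 cKO and 5 of 27 control CM-like cells, and of 14 mesenchymal markers in 10 and 4. With a pseudocount of 10 in place of 1 the Lama5 difference was 0.81 and was not called.

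Lamb2 lay just outside the limit for a call, and Lama5 was the chain nearest to it on the inside. Lamb2 in cKO CM-like cells ran from 0 to 7.67 log2 units, with a median of 0.23 and a mean of 1.64 ± 2.11, and 31 of 66 cells reached a TPM of 1 (47%, 34.6 to 59.7%) against 5 of 27 control cells (18.5%, 6.30 to 38.1%). Its difference was 0.98 over all cells, 0.96 in batch 1 and 0.97 in batch 2. The share of cells with Lamb2 was higher in cKO in both batches, 17 of 33 against 3 of 19 in batch 1 and 14 of 33 against 2 of 8 in batch 2. Its difference was 1.67 and called with a pseudocount of 0.1, and 0.42 and not called with one of 10. Without cells with 3 or more endothelial markers it was 0.78.

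The other chains did not reach the limit. Lamb1 was at 4.96 ± 1.91 in cKO CM-like cells, a difference of 0.67 from control, with 0.18 in batch 1 and 1.06 in batch 2. Among cells with fewer than 3 endothelial markers the Lamb1 difference was −0.05, with opposite signs in the batches (−1.03 and 1.74). Lamc1 was at 4.43 ± 2.35, a difference of 0.51, with 0.57 and 0.46 in the batches. Among cells with fewer than 3 endothelial markers the Lamc1 difference was 0.19, again with opposite signs in the batches (−0.28 and 0.81). For Lamb1, 60 of 66 cKO cells were at a TPM of 1 against 24 of 27 control cells, and for Lamc1 it was 55 of 66 against 22 of 27. These shares lie within each other's intervals.

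Lama4 had nearly the same mean in both genotypes, 4.13 ± 2.96 in cKO against 4.06 ± 2.21 in control, and its values depended on the batch. In control CM-like cells it was 4.52 in batch 1 and 2.97 in batch 2, and in cKO cells it was 5.02 and 3.24. Within a batch the cKO mean was therefore higher, by 0.50 and 0.26, while the pooled difference was 0.07, since most control cells were in batch 1. The sign also depended on endothelial markers. Among cells with fewer than 3 of them the difference was 0.53 (0.60 in batch 1, 1.72 in batch 2, with 3 control cells). Among cells with 3 or more it was −0.67 (−0.36 and −0.64). The highest cKO cell, at 8.64, exceeded every control cell, yet 20 of 66 cKO cells against 4 of 27 control cells were under a TPM of 1. The share of cells at a TPM of 1 was 69.7% (57.1 to 80.4%) in cKO and 85.2% in control, 84.8% and 84.2% in batch 1 and 54.5% and 87.5% in batch 2.

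The remaining alpha chains were rare in both genotypes and did not pass the filter. Lama2 was at a TPM of 1 in 0 of 66 cKO cells, which allows up to 4.55%, against 4 of 27 control cells. In batch 2 no cell of either genotype reached it, so the difference of −0.60 rests on batch 1. Lama1 reached a TPM of 1 in 3 of 66 cKO cells, all in batch 1, and Lama3 in none. Among the chains outside the 8, Lamb3 differed by 0.76 (0.49 in batch 1, 0.89 in batch 2) and Lamc3 was at or near 0. Over all 8 members the median difference was 0.31, with 0.35 in batch 1 and 0.36 in batch 2, and over the 5 that passed the filter 0.67, against 0.06 over all genes tested (0.17 and −0.17 in the batches). The members have long transcripts, with longest forms of 5629 to 11388 bases. Among 1917 genes with a longest transcript of at least 6000 bases, 11.6% were called higher and the median difference was 0.19, and the part of length in the values of the chains was not tested.

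**Figure D2:**
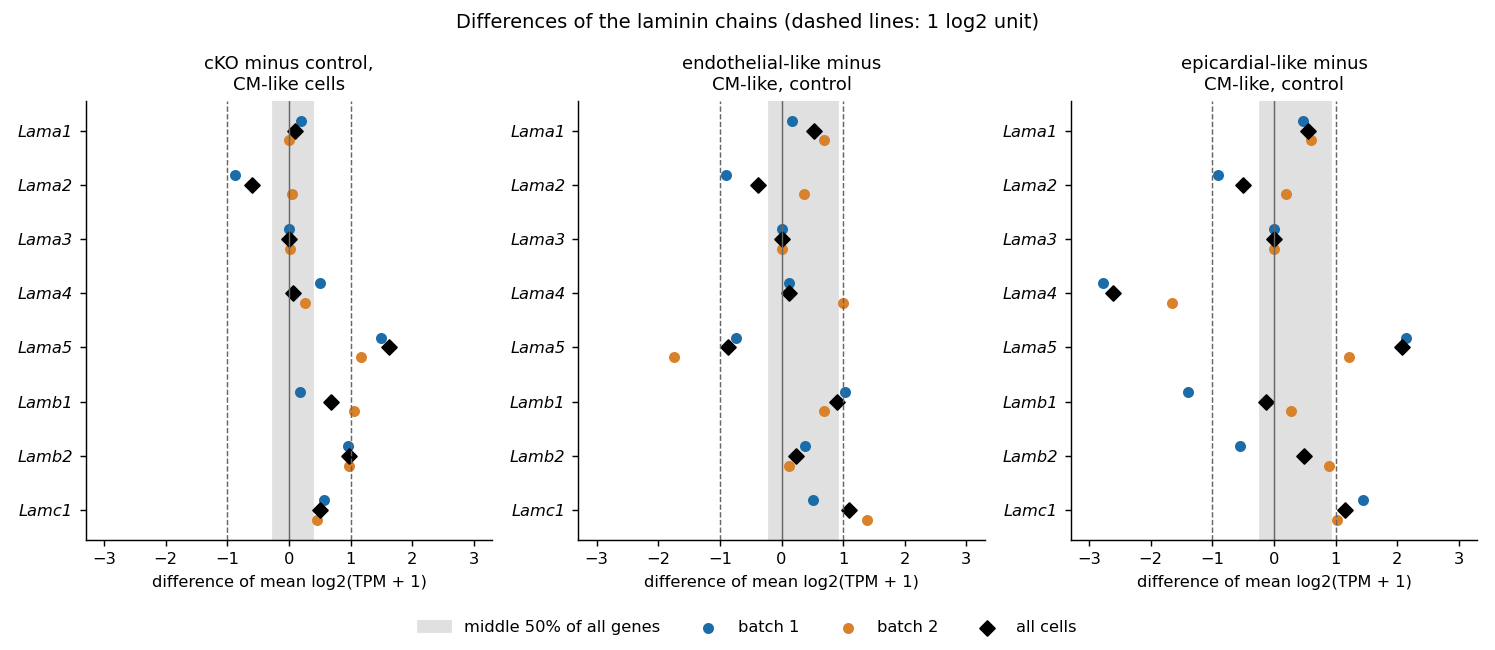
Differences of mean log2(TPM + 1) of the 8 chains (rows) over all cells (black), in batch 1 (blue) and in batch 2 (orange), for cKO minus control CM-like cells and for endothelial-like and epicardial-like minus CM-like control cells. The grey band holds the middle 50% of all genes tested, and Lama5 lies past 1 log2 unit in the first and the third panel, Lama4 past −1 in the third.

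The second comparison asked which chains the cell classes of control hearts combine. In endothelial-like cells Lama4 was at 4.18 ± 2.41 (range 0 to 7.10, median 5.07, n = 22), and 17 of 22 reached a TPM of 1. Lama5 was at 0.58 ± 1.23, with a median of 0.02 and 4 of 22 cells at a TPM of 1. Lamb1 was at 5.19 ± 1.97 and Lamc1 at 5.01 ± 2.01, each at a TPM of 1 in 20 of 22 cells. Of the 13130 genes tested against CM-like cells, 20.5% were called higher and 8.11% lower. Lamc1 was the only member called, 1 of 5 that passed, with a difference of 1.09 over all cells, 0.51 in batch 1 and 1.38 in batch 2. Lama4 differed by 0.13 over all cells and in batch 1 and by 1.00 in batch 2, where CM-like cells had less of it. Lamb1 differed by 0.91, Lamb2 by 0.23 and Lama5 by −0.86 (−0.74 and −1.75 in the batches).

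The median of all genes tested was itself shifted by 0.29 in this comparison. Relative to that shift Lamc1 was 0.81 higher, below the limit, and Lama5 was 1.15 lower and past it. After that subtraction 1972 genes were called higher and 1607 lower, against 2686 and 1065 before it. The median difference of the 8 members was 0.18 before the subtraction.

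Epicardial-like cells had the opposite alpha chain. Lama5 ran from 0 to 6.91 with a median of 3.84 and a mean of 3.52 ± 3.01 (n = 13), and 8 of 13 cells reached a TPM of 1. Lama4 ran from 0 to 6.41 with a median of 0.39 and a mean of 1.44 ± 2.11, and 5 of 13 cells reached a TPM of 1. Both chains overlapped with their range in CM-like cells. Of 11909 genes tested against CM-like cells 19.4% were called higher and 7.73% lower, and of the 5 members that passed the filter 2 were called higher and 1 lower. Lama5 was higher by 2.08 (2.14 and 1.21 in the batches) and Lama4 lower by 2.61 (−2.78 and −1.66). Lamc1, at 5.06 ± 1.46 and detected in 13 of 13 cells, was higher by 1.15, or by 0.86 relative to the shift of 0.29 of all genes, which is below the limit. After subtraction of that shift 1627 genes were called higher and 1336 lower, against 2305 and 921 before it. Lamb1, at 4.16 ± 2.03, differed by −0.12 with opposite signs in the batches. The batch 1 values rest on 4 epicardial-like cells.

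Set against each other, epicardial-like and endothelial-like cells differed most in their alpha chains. Of 11527 genes tested 10.6% were called higher and 12.8% lower in epicardial-like cells, and of the 6 members that passed 1 was called higher and 2 lower. Lama5 was higher by 2.94 (2.88 and 2.96 in the batches), and Lama4 was lower by 2.74 (2.91 and 2.65 lower). Lamb1 was lower by 1.03 (2.42 and 0.41 lower in the batches), and by 0.98 relative to the median of all genes. In batch 1 all of these values rest on 4 epicardial-like cells. Lamc1 differed by 0.05. In descending order of mean Lama5 log2(TPM + 1), epicardial-like (3.52), cKO CM-like (3.07), control CM-like (1.45) and endothelial-like cells (0.58) followed each other, and no neighbours in that order differed by more than their SD. For Lama4 the order was endothelial-like (4.18), cKO CM-like (4.13), control CM-like (4.06) and epicardial-like (1.44), and the last step, of 2.61, was larger than the SD of either neighbour. The order of the first 3 depended on the batch. In batch 1 cKO CM-like cells led (5.02), with endothelial-like (4.65) and control CM-like cells (4.52) after them, and in batch 2 endothelial-like cells led (3.97), with cKO (3.24) and control CM-like cells (2.97) after them.

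Shares of summed mean TPM showed which alpha chain dominated in each class. Lama4 made up 71.3% of alpha chain TPM in control CM-like, 60.7% in cKO CM-like, 92.1% in endothelial-like and 18.3% in epicardial-like cells. Lama5 made up 18.3%, 39%, 4.39% and 79.4%. Lama2 made up 10.4%, 0.03%, 0.91% and 0.35%. In control CM-like cells of batch 1 its share, 12.2%, was above that of Lama5, and in those of batch 2 it was 0%. In endothelial-like cells Lama4 led in both batches (98.7% and 89.2%), and in epicardial-like cells Lama5 led in both (82.9% and 78%). In CM-like cells the chain with the larger share of summed TPM differed between the batches in both genotypes. Lama4 made up 76.7% of control and 78.5% of cKO alpha TPM in batch 1, while Lama5 made up 60.3% of control and 55.4% of cKO alpha TPM in batch 2. The Lama5 share was therefore higher in cKO in batch 1 (21.1% against 11.1%) and lower in batch 2.

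**Figure D3:**
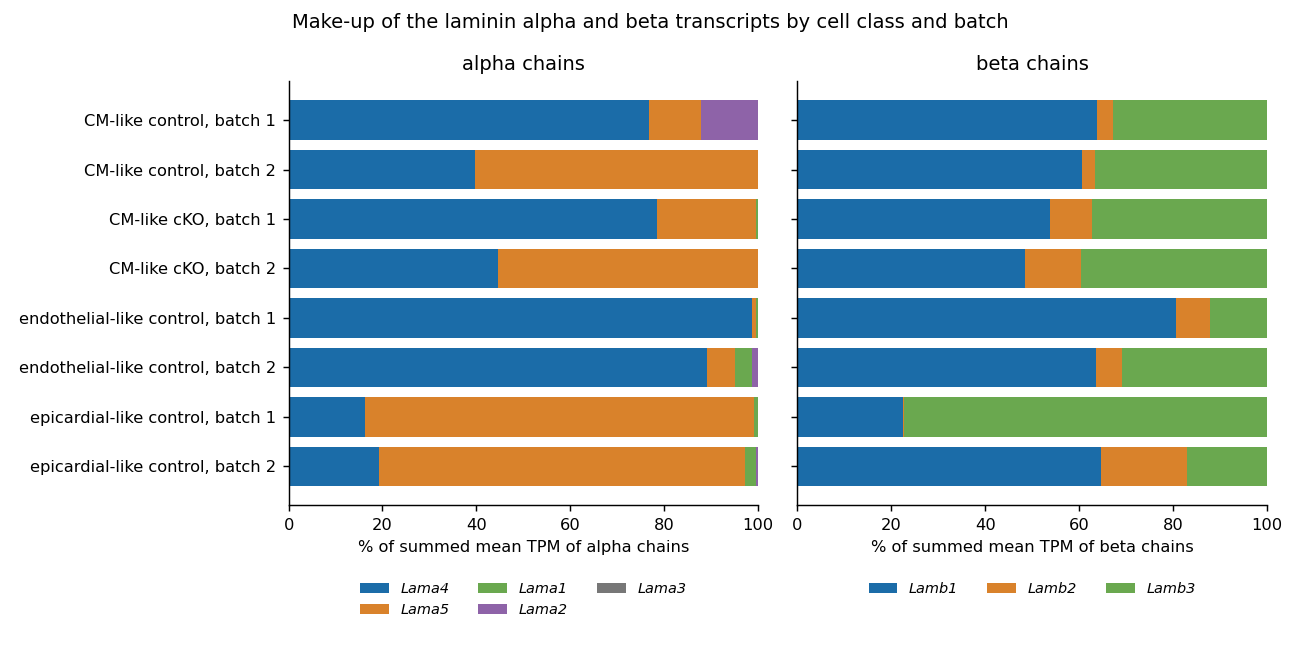
Stacked bars give each chain's percentage of the summed mean TPM of the alpha or beta chains, for each cell class, genotype and batch. Lama4 (blue) fills most of the alpha bar in endothelial-like cells and Lama5 (orange) in epicardial-like cells, and in CM-like cells of both genotypes Lama5 takes more of the bar in batch 2 than in batch 1.

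The alpha chains were then counted cell by cell. Among control CM-like cells with any alpha chain at a TPM of 1, Lama4 was the highest alpha chain in 18 of 23 and Lama5 in 5. Among cKO CM-like cells it was Lama4 in 38 of 59 and Lama5 in 21. By this count Lama4 led in batch 2 as well, narrowly, in 4 against 3 control and 14 against 13 cKO cells, while in batch 1 it led in 14 against 2 and 24 against 8. In endothelial-like cells Lama4 led in 17 of 19, and in epicardial-like cells Lama5 led in 7 of 11. In control CM-like cells Lama5 was never at a TPM of 1 without Lama4: 8 cells had both, 15 had Lama4 alone, 0 Lama5 alone and 4 neither. In cKO CM-like cells 27 had both, 19 Lama4 alone, 13 Lama5 alone and 7 neither. The 13 cells with Lama5 alone divided into 4 of 33 in batch 1 and 9 of 33 in batch 2. Within batches the control count of 0 allows a share of up to 15.8% (19 cells) and 37.5% (8 cells), above the cKO shares of 12.1% and 27.3%, so a difference was not detectable.

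Among the beta chains, Lamb2 was mostly found beside Lamb1. Lamb1 was the highest of the 3 beta chains in 18 of 24 control and 45 of 64 cKO CM-like cells with a beta chain. Lamb1 and Lamb2 were together at a TPM of 1 in 5 of 27 control and 29 of 66 cKO CM-like cells, and Lamb2 without Lamb1 in 0 and 2. Lamb1 and Lamc1 were found together in 20 of 27 control CM-like, 51 of 66 cKO CM-like, 18 of 22 endothelial-like and 11 of 13 epicardial-like cells.

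A cell that could build a laminin by itself needs an alpha, a beta and a gamma chain. Counting the 8 members at a TPM of 1, a full set was present in 20 of 27 control CM-like cells (74.1%, 53.7 to 88.9%), 48 of 66 cKO CM-like cells (72.7%, 60.4 to 83%), 16 of 22 endothelial-like cells (72.7%, 49.8 to 89.3%) and 10 of 13 epicardial-like cells (76.9%, 46.2 to 95%). The shares lie within each other's intervals. In batch 1 they were 13 of 19 and 28 of 33 for control and cKO CM-like cells, and in batch 2 they were 7 of 8 and 20 of 33. With any TPM above 0 the share in control CM-like cells was 96.3%, and with a TPM of at least 10 it was 48.1%. Among the cells that entered no comparison, a full set was present in 4 of 5 erythroid-like cells (80%, 28.4 to 99.5%). It was present in 0 of 7 control and 0 of 3 cKO cells of no named class. A full set was therefore not particular to the compared classes, and whether the transcripts were each cell's own was not tested.

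Over all cells of a class, the chains of laminin-411 were the most frequent full set in CM-like and endothelial-like cells. They were present in 20 of 27 control CM-like (74.1%), 40 of 66 cKO CM-like (60.6%) and 13 of 22 endothelial-like cells (59.1%), and in 4 of 13 epicardial-like cells (30.8%). The chains of laminin-511 were present in 8 of 13 epicardial-like (61.5%), 31 of 66 cKO CM-like (47%), 8 of 27 control CM-like (29.6%) and 2 of 22 endothelial-like cells (9.09%). Within batches laminin-411 chains were in 13 of 19 control and 24 of 33 cKO CM-like cells in batch 1 and in 7 of 8 and 16 of 33 in batch 2, where cKO cells held laminin-411 and laminin-511 chains equally often. Laminin-511 chains were in 4 of 19 control and 15 of 33 cKO CM-like cells in batch 1, and in 4 of 8 and 16 of 33 in batch 2. With Lamb2 as the beta chain, laminin-521 chains were in 2 of 27 control and 16 of 66 cKO CM-like cells, and laminin-421 chains in 4 of 27 and 17 of 66. The chains of laminin-211, the form known from mature muscle, were in 4 of 27 control and 0 of 66 cKO CM-like cells.

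**Figure D4:**
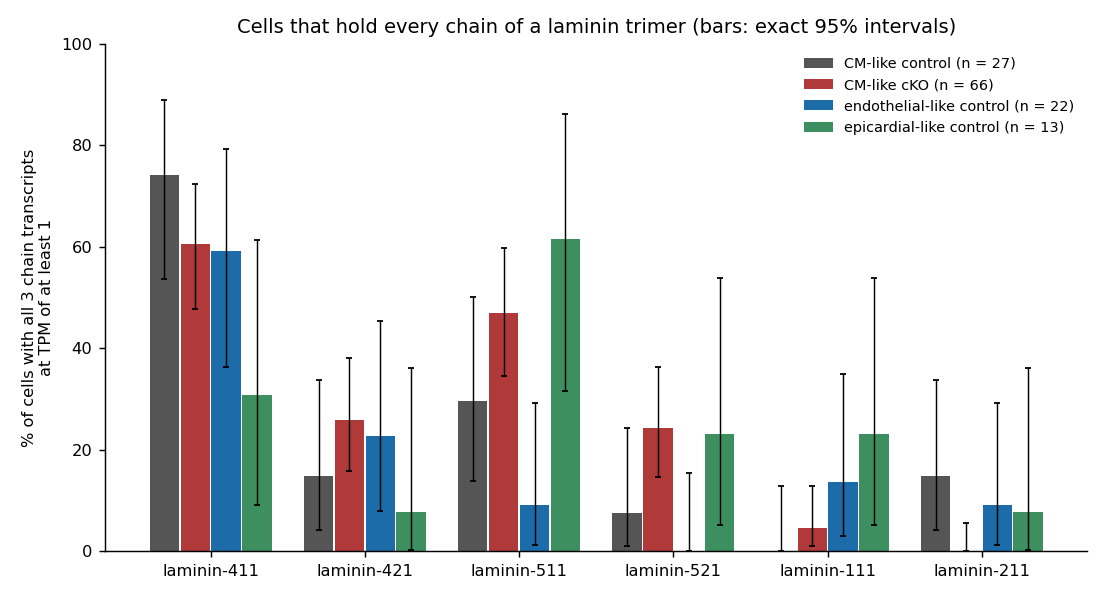
Bars give the percentage of cells that hold all 3 chain transcripts of a laminin at a TPM of at least 1, by cell class and genotype, with exact 95% intervals as lines. Laminin-411 chains are the tallest bars in CM-like and endothelial-like cells, laminin-511 chains in epicardial-like cells, where 8 of 13 cells hold them against 2 of 22 endothelial-like cells.

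Relations between chains across CM-like cells are given as descriptions over cells that share their library preparation and have zeros from incomplete capture. In 66 cKO CM-like cells Lama4 and Lama5 had a Pearson r of −0.14, Lama4 and Lamc1 0.36, and Lamb1 and Lamc1 0.15. In 27 control CM-like cells the same pairs had 0.13, 0.43 and 0.24. In 13 epicardial-like cells Lama5 and Lamb1 had an r of 0.65, Lama5 and Lamb3 of −0.54 and Lamb1 and Lamb3 of −0.71. In 22 endothelial-like cells Lamc1 and Lamb3 had −0.50. The Spearman values of these 4 pairs were 0.45, −0.37, −0.46 and −0.34. All values within a class pool both batches, so differences between batches enter them. In epicardial-like cells Lamb3 averaged 4.37 in batch 1 (4 cells) and 1.31 in batch 2, and Lamb1 2.81 and 4.76. The number of detected genes had an r of 0.59 with Lamb1 and 0.49 with Lama5 in control CM-like cells, and of −0.07 and 0.00 in cKO cells. The next values pool all classes, genotypes and batches, so differences between those groups enter them and they do not describe cells within a class. Over all 143 cells and 10384 genes, the genes with patterns most like those of the members, by Pearson r of log2(TPM + 1), were as follows. For Lama4 they were Irx4, a ventricular transcription factor (0.47), Zak (0.47) and Trdn, which encodes triadin of the calcium release unit (0.46). For Lama5 they were the keratins Krt19 (0.49) and Krt8 (0.48) and Arhgdig (0.47). For Lamb1 they were Fbln1, which encodes the matrix protein fibulin 1 (0.57), Anxa2 (0.55) and Pdia6, a disulfide isomerase of the endoplasmic reticulum (0.53). For Lamc1 they were Sptbn1 (0.51), Aplp2 (0.50) and Rbms1 (0.49), and for Lamb2 no gene exceeded 0.36, with Tcf25, Fbxl12os and Rasl11b in front.

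The proteins that laminins join in the basement membrane were then compared between the genotypes. In cKO CM-like cells 7 of 14 basement membrane partners that passed the filter (17 in the table) were called higher and 0 lower, beside 6.73% and 5.85% of all genes. Their median difference was 1.03, with 1.07 in batch 1 and 0.91 in batch 2. Hspg2, which encodes perlecan, was at 1.99 ± 1.63 in control and 4.30 ± 2.20 in cKO cells, a difference of 2.32 (2.17 and 2.00 in the batches). Col18a1, whose product holds endostatin, differed by 1.89 (1.46 and 2.36), and Agrn, which encodes agrin, by 1.87 (2.30 and 1.43). Nid2 (1.77), the collagen chains Col4a1 (1.49) and Col4a2 (1.41) and Fbln1 (1.03) were also called, Fbln1 at the limit and 0.97 relative to the median of all genes. Nid1, the other nidogen, differed by −0.03.

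Among CM-like cells with fewer than 3 endothelial markers, 7 of 13 partners were called higher and 0 lower, with a median of 1.36, while 13.2% of all 12067 genes tested there were called higher. Hspg2, Col18a1, Agrn, Col4a1, Col4a2 and Nid2 were called both in all CM-like cells and in this part of them. The part is contained in the whole, so the calls are not independent, and it has 3 control cells in batch 2. In endothelial-like cells Hspg2 (3.13), Col18a1 (5.16) and Agrn (1.92) were higher than in CM-like control cells, and so was Nid1 by 5.48, whereas Nid2 was lower by 3.11. The part of endothelial transcripts in the cKO values was not tested. In that class comparison 8 of 13 partners were called higher and 1 lower, beside 20.5% and 8.11% of all genes. Between epicardial-like and CM-like cells 5 of 13 were called higher and 1 lower, beside 19.4% and 7.73%.

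Laminin receptors were less uniform. Of 12 receptor genes that passed the filter (14 in the table), 2 were called higher and 1 lower in cKO CM-like cells, beside 6.73% and 5.85% of all genes, with a median difference of 0.29 (0.36 and 0.05 in the batches). Itga6, the alpha 6 integrin that binds laminins with Itgb1, was at 5.78 ± 1.49 in control and 7.21 ± 2.30 in cKO cells, a difference of 1.43 (0.79 and 1.91). Sdc4, a syndecan, differed by 2.01, with 2.75 in batch 1 and 0.48 in batch 2, and Sdc1 by −1.46 (−1.33 and −1.99). Itgb1 and Dag1, which encodes dystroglycan, differed by 0.89 and 0.92, close to the limit and of the same sign in both batches. Of 15 genes of dystroglycan glycosylation, 1 was called higher, the glycosyltransferase gene Large (1.05), and of 11 genes of the dystrophin complex 1 was called higher, the sarcoglycan gene Sgce (1.56, with 2.10 and 0.54 in the batches). These counts are near the 6.73% of all genes called higher. The medians of these lists were −0.01 and 0.45.

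**Figure D5:**
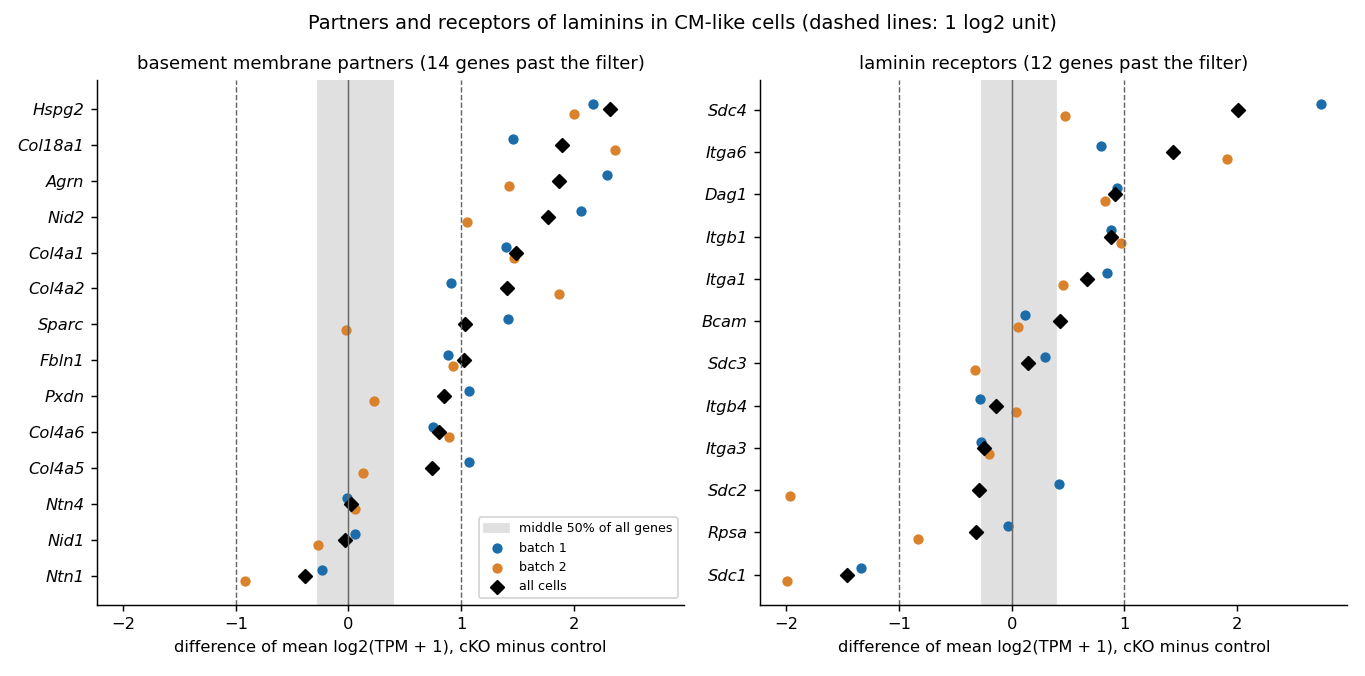
Differences of mean log2(TPM + 1), cKO minus control CM-like cells, for the basement membrane partners and laminin receptors that passed the filter, over all cells (black), in batch 1 (blue) and in batch 2 (orange). The grey band holds the middle 50% of all genes, and 7 partners, led by Hspg2, lie past 1 log2 unit with the same sign in both batches.

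Receptors also differed between the classes of control cells. In epicardial-like cells, where Lama5 led, 6 of 11 receptors were called higher than in CM-like cells and 0 lower, beside 19.4% and 7.73% of all genes, among them Sdc4 (4.97), Bcam (2.07), which encodes the Lutheran receptor of laminin alpha 5, and Sdc1 (2.00). In endothelial-like cells 3 of 10 were called higher and 3 lower, beside 20.5% and 8.11%. Sdc1 (2.50) and Itga1 (2.36) were higher there and Bcam was lower by 2.47, at a mean of 0.17 ± 0.50 against 2.63 ± 2.43 in CM-like cells. Bcam and Lama5 thus had the same order over the control classes, highest in epicardial-like and lowest in endothelial-like cells. In cKO CM-like cells, where Lama5 was higher, Bcam differed by 0.43 (0.12 and 0.06 in the batches) and was not called.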

How the data were processed

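Single-cell libraries were made by Smart-seq2 and Tn5 tagmentation, and reads were quantified by the authors with Salmon on mm10 (version and annotation not given in the sources used here). The deposited values are TPM, which the authors computed per cell. They sum to 996133 to 999999 in each cell, so they keep no depth. The authors kept cells with a mapping rate above 70% and removed cells whose reporter contradicted the genotype. Of 170 labelled samples, 143 had a column and 27 were not used here. No identical columns were found, no doublet caller was run, and no cell was removed.

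Values are log2(TPM + 1), which understates changes of low genes. Cells were clustered by Ward linkage of 56 markers into 5 clusters, and each cluster was named for the class whose markers were raised in the largest proportion, given at least 3 of them and no more markers of another class than of its own among its 10 leading genes. A gene was compared if more than 10 of the cells had a TPM above 0, and was called by size: a difference of at least 1 log2 unit with the same sign in both batches. Each genotype is 1 sample, so no test was run. Shares have exact Clopper-Pearson 95% intervals, and a count of 0 was taken to allow 3 cells. The 8 members and the lists were chosen with earlier results of these data known. Named genes are the members, Lamb3 and Lamc3, up to 3 called genes per list with the largest differences, genes needed for exceptions, and the 3 genes with the highest r to each member. Nid2, Nid1, Col4a1, Col4a2, Fbln1, Itgb1, Dag1 and Bcam in cKO cells, and Hspg2 and Agrn in endothelial-like cells, were named after their values were seen. Alternatives were other pseudocounts, scalings, detection ranges and clusterings, and dropping CM-like cells with 3 or more endothelial markers. For the lists and for the calls between classes these alternatives were added after seeing the data. The calculation was tested on simulated data. Python 3.11.15, numpy 2.4.6, pandas 2.3.3 and scipy 1.17.1 were used. Annotation and 3′ UTRs are from GENCODE, and microRNA and promoter sequences from RefSeq. One further item is not reported here.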

Additional observations from a re-analysis of the deposited data

Results flagged for a closer look

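In the 10 cells of no named class, which entered no comparison, Lamb1 had a mean log2(TPM + 1) of 3.63 in the 3 cKO cells, a mean above each of the 7 control cells, whose mean was 0.62 and highest value 1.45. The 3 cKO cells were at 0.14, 3.51 and 7.23, so a single cell carries much of that mean and another lay below some control cells. The median share of mitochondrial transcripts was 18.6% in those 3 cells and 54% in the 7 control cells, and this difference was not tested.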

How the results depend on the processing

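The median cKO difference of the 8 chains in CM-like cells, 0.31, stayed positive under every alternative run. It was 0.45 and 0.32 with pseudocounts of 0.1 and 10, and 0.35 and 0.36 in batches 1 and 2 alone. In cells with at least 5000 detected genes it was 0.24, and in cells with 7000 to 11000 it was 0.21. It was 0.67 with 4 clusters and 0.14 with clusters of the 1000 most variable genes without markers. Without mitochondrial transcripts it was 0.28, relative to the median of all genes 0.25, and without CM-like cells with 3 or more endothelial markers 0.14. As a ratio of mean TPM the median was 0.81, but over fewer chains. Lama1 and Lama3 were at 0 in all control CM-like cells and have no ratio. The count of chains called higher, 1, became 2 with a pseudocount of 0.1, with the ratio of mean TPM, in batch 2 alone and with clusters of variable genes, 3 with 4 clusters or a limit of 0.6 log2 units, and 0 with a pseudocount of 10 or without the cells with endothelial markers. With 6 clusters the CM-like cells were the same 27 and 66 as in the main run, so that alternative could not change a sign. With it counted, Lama5, Lamb2 and Lamc1 kept their sign in 13 of 13 alternatives, Lamb1 in 12 and Lama4 in 9. The cause of these changes was not tested. The higher Lama5 and lower Lama4 of epicardial-like cells were called under every alternative run against both other classes. Clusters of variable genes gave no epicardial-like class and so no value for it. A full set of chains was found in 96.3% of control and 89.4% of cKO CM-like cells and in 100% of epicardial-like cells with any TPM above 0, and in 48.1% and 53% of control and cKO CM-like cells at a TPM of at least 10.

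Among basement membrane partners the count called higher in cKO, 7, was 4 with a pseudocount of 10, 9 with 0.1 and 10 with 4 clusters, where 2.00%, 11.4% and 11.9% of all genes were called higher. Depth per cell is unknown, so a chain at 0 in a cell was not detected rather than absent. No paired analysis was possible because a label's number marks a single cell and no result comes from a test.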
